A study of Homo sapiens with 4 samples.

Results

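The PF EPCaT, an engineered prostate cancer tissue in a gel of polyethylene glycol and fibrinogen (PF), was compared with a flat (2D) coculture of the same cells. A gene was considered when it had at least 1 CPM (count per 1000000 counts) in either library, which gave 14571 of the 17791 genes in the deposited table. Its cancer cells are PC-3, established from prostate cancer that had spread to bone, and its stromal cells are BJ-5ta, foreskin fibroblasts immortalised with a telomerase transgene. They were encapsulated at 20 times 1000000 cells per mL, with 5 PC-3 cells for each BJ-5ta cell, kept in PC-3 medium and sampled on day 15 with no drug or other treatment. Other EPCaTs, called PF+2%PEGDA and PF+3%PEGDA, were made with the same cells, ratio and day, and their gels also held polyethylene glycol diacrylate (PEGDA) at 2% or 3% to tune the mechanics, so the PF gel is the one without added PEGDA. The 2D coculture joins the same lines without a gel, and its ratio, age and medium are not given in the labels used here. RNA came from more than 2 pooled tissues for each EPCaT and from 1000000 cells for 2D, and each of the 4 groups has 1 library.

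With 1 library a side there are no replicates and no test between groups, so each ratio compares libraries. The 95% intervals given with ratios are exact Clopper-Pearson intervals and cover counting error only. Below, "higher" and "lower" mean a ratio of at least 2-fold with an interval that excludes equality. Levels are in CPM, where each library's counts are divided by its scaled size and multiplied by 1000000, and a series of 4 levels is always in the order PF, PF+2%PEGDA, PF+3%PEGDA and 2D. The 3 EPCaTs share the 2D library as their reference, so their ratios to it are not independent of each other.

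Cells in a gel are supplied by diffusion, and when oxygen is short the HIF transcription factors switch on genes of glycolysis, vessel growth and pH control. On flat plastic, spread cells build strong adhesions that feed YAP, TAZ and contractile genes, and fibroblasts secrete collagen and fibronectin. Messenger RNAs of ribosomal proteins are short, abundant and cytoplasmic, while NEAT1 and MALAT1 are long RNAs that stay in the nucleus.

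Total counts were 13760301 to 15687894 per library, and 1 count was worth 0.05998 to 0.07337 CPM. The PF library stood apart in its RNA classes. Ribosomal protein genes took 2.2% of its counts, against 3.84% to 4.42% in the other libraries. Ribosomal RNA took 2.16%, against 0.685% and 0.717% in the PEGDA tissues and 1.6% in 2D. The kit selects poly-A RNA, and the part of that selection in the ribosomal RNA share was not tested. The PF library also had the most genes detected, 17064 against 16489 to 16811. The labelled cell types were checked with markers. All 24 epithelial genes on the list were measured, with KRT18, a simple epithelial keratin, at 540, 635, 604 and 646 CPM. Of 24 fibroblast markers 21 were measured, and CTNNA1, the alpha-catenin gene that PC-3 cells have lost, was at 5.40, 6.19, 8.29 and 33.1 CPM.

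Against 2D, 2400 genes were higher in the PF EPCaT (16.5% of those considered) and 1776 were lower (12.2%), 28.7% in all. Counts of called list members in PF, given below, are to be read against these shares of all genes. The median log2 ratio of all genes considered was 0.02. In the PF+2%PEGDA tissue 1720 genes were higher (11.8%) and 1395 lower (9.57%), 21.4% in all, and in the PF+3%PEGDA tissue 1663 (11.4%) and 1534 (10.5%), 21.9% in all. About 1 gene in 2 that moved in PF also moved the same way in both PEGDA tissues, 1131 of the higher genes (47.1% of them and 7.76% of all considered) and 902 of the lower (50.8% and 6.19%). A further 281 higher genes (1.93% of all considered) and 139 lower (0.954%) were shared with PF+2%PEGDA alone, and 138 (0.947%) and 158 (1.08%) with PF+3%PEGDA alone. That left 850 higher (5.83%) and 577 lower (3.96%) genes called in PF and not the same way in either PEGDA tissue. Opposite calls were few, with 32 genes higher in PF (0.22%) and 4 lower (0.0275%) that were called the other way in a PEGDA tissue. Between tissues, 819 genes were higher (5.62%) and 349 lower (2.4%) in PF than in PF+2%PEGDA, 8.02% in all, and 1106 (7.59%) and 437 (3%) than in PF+3%PEGDA, 10.6% in all. With libraries scaled by total counts alone, 68.2% of the calls against 2D were higher in place of 57.5%, and the median of all genes moved to 0.195.

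**Figure D1:**
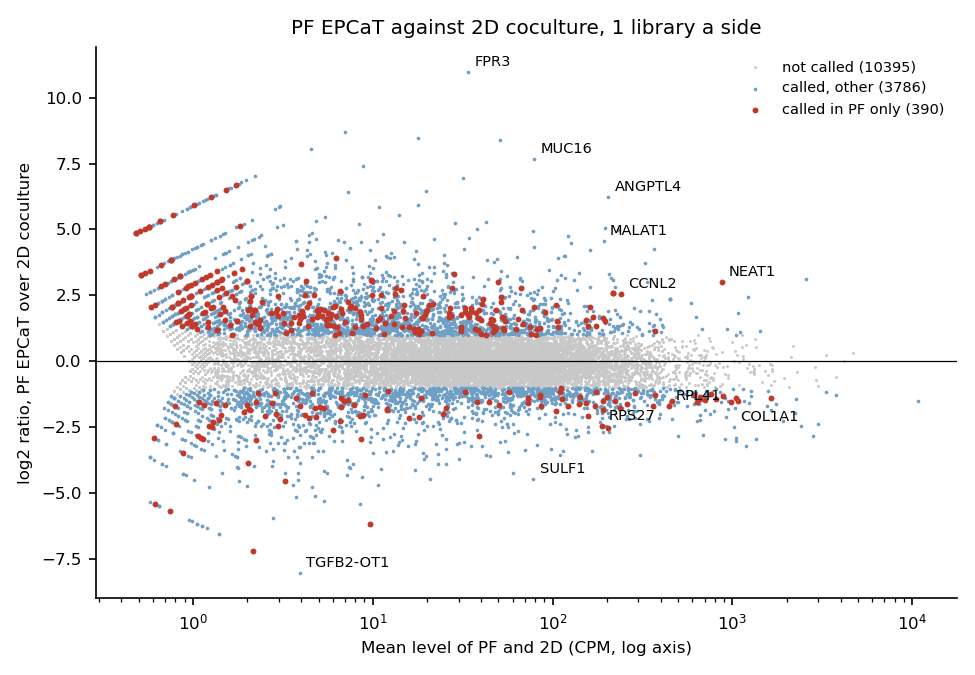
Each point is a gene, with its mean level in the PF and 2D libraries (CPM, log axis) and its log2 ratio of PF over 2D. Blue points are called genes and red points are the 390 genes called in the PF EPCaT only, which lie on both sides of 0, with NEAT1 and CCNL2 among the higher and RPS27 and RPL41 among the lower.

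A stricter group was set apart to show what the PF gel did not share. A gene was counted as PF-only when it was called in PF against 2D, not called in either PEGDA tissue against 2D, and called the same way in PF against each of them. This gave 280 higher genes (1.92% of those considered) and 110 lower (0.755%). The higher group held 31 pseudogenes (11.1%, against 2.12% of all genes considered) and 177 protein-coding genes (63.2% against 91%). Of the 280 higher genes, 38 have no annotated type, as do 363 of all genes considered, and they are in neither count. Among the lower group, 38 of the 103 genes with an annotated length had a principal transcript under 1 kb (36.9%, against 5.52% of all with a length).

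**Figure D2:**
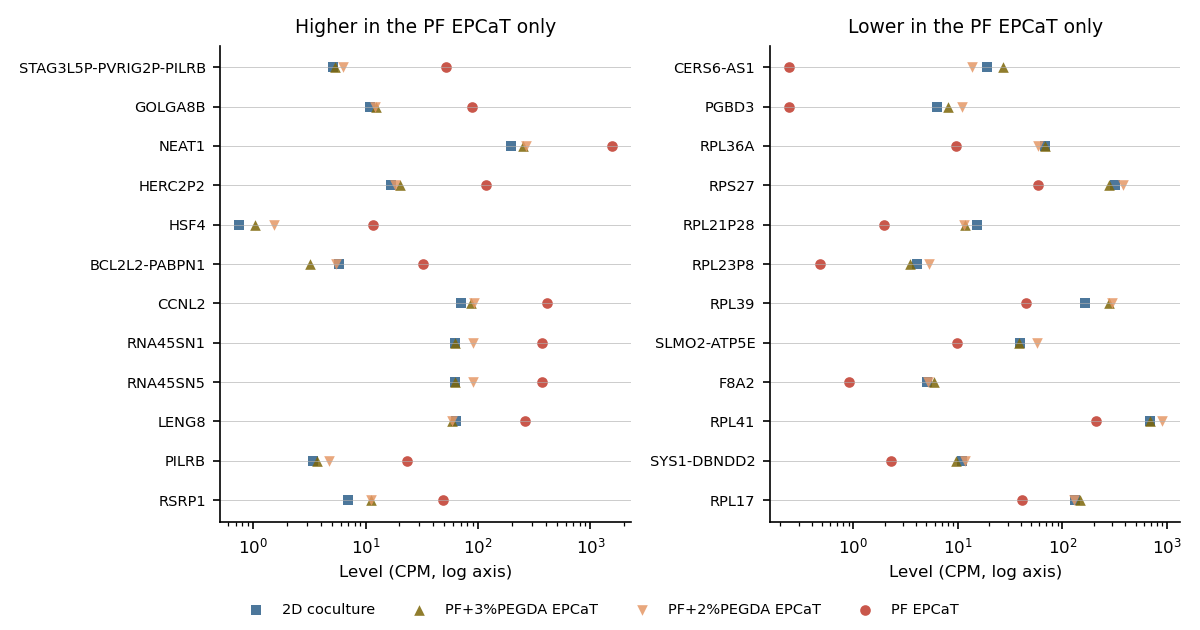
Levels (CPM, log axis) of the 12 PF-only genes ranked first in each direction, 1 library per symbol. Red circles (PF) stand away from the blue squares (2D) and both triangles (PEGDA tissues), which lie close together, as for NEAT1 at 1565 CPM in PF and 195.5 to 267 CPM in the others.

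Of 8 RNAs listed as nuclear, not all of which stay in the nucleus, 4 were higher and 1 lower in PF, and 1, NEAT1, was PF-only. NEAT1, the scaffold of nuclear paraspeckles (chromosome 11, 65422774 to 65445540, GRCh38), measured 1565, 267, 252 and 195.5 CPM, 8.00-fold higher than 2D (interval 7.70 to 8.32). The PF library alone was high, and the PEGDA libraries lay within 2-fold of 2D. MALAT1, a nuclear speckle RNA from the neighbouring locus (65497688 to 65506516), measured 369, 47.4, 82.4 and 15.5 CPM and was 23.7-fold higher (interval 20.8 to 27.2). It was above 2D in all 3 tissues and 7.79- and 4.48-fold higher in PF than in PF+2%PEGDA and PF+3%PEGDA. KCNQ1OT1, which silences an imprinted domain, showed the same order, with 11.4, 2.90, 3.16 and 0.886 CPM.

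Of 20 splicing genes 5 were higher and 0 lower in PF (25%, against 16.5% higher among all genes considered), and 0 were called in either PEGDA tissue. Their median log2 ratio was 0.70 in PF and 0.19 and 0.09 in the PEGDA tissues, and 3 were PF-only. CLK2, named after its values were seen, is a kinase that phosphorylates splicing factors and was PF-only at 66.6, 30.5, 29.4 and 26.4 CPM, as were PNISR at 81.2, 30.1, 28.9 and 28.1 CPM and LUC7L3, a U1 snRNP-associated factor, at 152, 56.3, 55.5 and 61.8 CPM. CCNL2, which encodes the splicing-linked cyclin L2 (chromosome 1, 1385711 to 1399328), measured 413, 91.2, 86.06 and 70.9 CPM and was 5.81-fold higher (interval 5.45 to 6.21). LENG8 and RSRP1 followed the same pattern, 4.12- and 6.88-fold above 2D. GAS5 was the lower RNA of the nuclear list, with 1.62, 6.44, 3.82 and 18.5 CPM. Its spliced RNA is degraded when translated, so it is not confined to the nucleus.

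Several of the first 12 PF-only higher genes are repeated or overlapping loci, and their values are uncertain because the kit does not mark strand and the method of counting is not given in the sources used here. The precursor ribosomal RNA entries RNA45SN1 and RNA45SN5 had identical values, 372, 90.06, 62.4 and 62.3 CPM, and count as 1 measurement (5.98-fold). The part of poly-A selection in the ribosomal RNA values was not tested. GOLGA8B and HERC2P2 lie in duplications on chromosome 15 that share 65.4% and 71.2% of their 50-mers with other genes, and they measured 88.5 and 117 CPM in PF against 11.04 and 16.9 CPM in 2D. STAG3L5P-PVRIG2P-PILRB and PILRB overlap on chromosome 7 and were 9.92- and 6.81-fold higher. BCL2L2-PABPN1, a read-through symbol, was 5.57-fold higher, and HSF4, a heat shock factor gene that shares 31.4% of its exon bases with a neighbour, 15-fold (interval 8.53 to 31.8, from 11 counts in 2D). Of 13 ribosomal RNA entries 9 were higher and 1 lower in PF, and of 35 members of the GOLGA8, NPIP, HERC2P and NBPF families 12 and 2. Without genes known to lie in copies or overlaps, 238 higher and 96 lower PF-only genes were left. Of these, 38 higher and 7 lower genes have no annotation and could not be checked.

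Centrosome genes were another group with calls in PF. These proteins build centrioles and anchor microtubules at spindle poles and cilia. Of 20 on the list, 12 were higher in PF (median 1.17), 1 in PF+2%PEGDA (0.20) and 0 in PF+3%PEGDA (0.04), where 1 was lower. In 19 of the 20 the PF library had the highest level of the 4. CEP192, which recruits the mitotic kinases to the pole (chromosome 18, 12991362 to 13125052), measured 58.6, 26.9, 27.5 and 18.9 CPM (3.10-fold, interval 2.72 to 3.56). CNTRL, encoding centriolin, measured 10.6, 3.801, 2.35 and 2.66 CPM, and AKAP9, a Golgi and centrosome scaffold, 65.5, 32.7, 23.8 and 24.2 CPM. CEP290, CEP152 and CENPJ, named after their values were seen, were also PF-only, which made 6 of the 20. These transcripts are long, and with the trend of ratio on transcript length and GC content removed 7 were higher (median 0.94) and 3 were PF-only. Chromatin regulators with long transcripts, such as KMT2C and CHD7, had a median of 0.53 in PF, which became 0.22 with the trend removed.

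Many genes of cell division were higher in the EPCaTs than in 2D, and most had their highest level in PF. Of 31 kinetochore and checkpoint genes, which attach chromosomes to the spindle, 25 were higher in PF (median 1.89), 21 in PF+2%PEGDA (1.28) and 8 in PF+3%PEGDA (0.78). For 27 mitotic kinesins and spindle genes the counts were 24, 20 and 5 (medians 2.09, 1.34 and 0.46), and all 27 had their highest level in PF. Direct comparison of the tissues called 4 of these 27 higher in PF than in PF+2%PEGDA and 22 higher than in PF+3%PEGDA. SPC25, a subunit of the NDC80 complex that binds microtubules, measured 9.42, 5.61, 3.595 and 0.204 CPM, a ratio of 39.6 (interval 15.5 to 226) that rests on 3 counts in 2D. DLGAP5, a spindle-stabilising protein gene, measured 45.2, 26.7, 12.8 and 4.22 CPM (10.6-fold), and ANLN, encoding the cytokinesis scaffold anillin, 90.3, 59.1, 29.7 and 13.2 CPM (6.85-fold). Each of these declined across the tissues in the order PF, PF+2%PEGDA, PF+3%PEGDA and stayed above 2D.

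A few mitotic genes met the PF-only rule, with PF+2%PEGDA just under 2-fold above 2D. CENPE, a kinesin that aligns chromosomes, measured 17.8, 4.12, 3.23 and 2.11 CPM (8.29-fold). CENPF, a large kinetochore protein gene (chromosome 1, 214603195 to 214664588), measured 85.4, 35.4, 17.98 and 17.9 CPM (4.78-fold), and KIF15, a spindle motor gene, 18.96, 6.06, 2.94 and 3.27 CPM (5.75-fold). PF+2%PEGDA was 1.94-, 1.98- and 1.84-fold above 2D for CENPE, CENPF and KIF15, and of the 2 kinetochore genes that were PF-only 0 were so with total counts scaling. CENPF and KIF15 are named after their values were seen. MKI67, the gene of the Ki-67 antigen, was higher in all 3 tissues and not PF-only. It measured 119, 49.03, 25.9 and 7.56 CPM and was 15.7-fold higher in PF (interval 13 to 19.3).

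DNA replication and repair genes followed the same order of medians. Of 32 origin licensing and replisome genes 24 were higher in PF (median 1.34), 15 in PF+2%PEGDA (0.92) and 10 in PF+3%PEGDA (0.70). CLSPN, encoding the checkpoint adaptor claspin, measured 18.5, 9.99, 4.40 and 1.57 CPM (11.6-fold), and CDC45, a part of the replicative helicase, 11.9, 8.38, 4.99 and 1.43 CPM (8.17-fold). Of 24 homologous recombination and Fanconi genes 19 were higher (median 2.33), against 17 (1.42) and 11 (0.87), with 1 lower in PF+3%PEGDA. FANCD2, the Fanconi protein that is ubiquitinated at crosslinks, measured 40.01, 22.8, 13.9 and 3.88 CPM, and POLQ, a polymerase of end joining, 15.7, 5.09, 3.01 and 1.70 CPM. ESCO2, an acetyltransferase that establishes sister chromatid cohesion, had 2 counts in 2D and a ratio of 84.7 (interval 28.9 to 878). Of 11 cohesin genes on the list that holds ESCO2, 2 were higher in PF and 0 lower (median 0.36). That share, 18.2%, is near the 16.5% of all genes considered. RRM2, a subunit of ribonucleotide reductase, was 20-fold higher, but of 16 nucleotide synthesis genes only 5 were higher and 1 was lower, and their median was 0.24.

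A promoter motif of late cell cycle genes was searched in the RefSeq promoter table (GRCh38.p14), which matched 11261 of the genes considered and gives 250 bases before to 50 after the annotated start. The cell cycle homology region, TTTGAA on either strand, is bound by the DREAM and MuvB complexes that time these genes. It was present in 45 of 72 promoters of the kinetochore, mitotic kinase and kinesin lists (62.5%) and in 9.71% of all. The median log2 ratio in PF was 1.95 for the 45 with a match and 1.79 for the 27 without. The 5 windows shown are from cell division genes with a match close to the start, with the match closest to the middle of the window, as the motif or its reverse complement, in capitals. The windows of ANLN and HMMR hold a second match just before it, in lower case. They lie at chr7:36389830-36389859 (ANLN), chr3:44761747-44761776 (KIF15), chr15:40161034-40161063 (BUB1B) and chr5:163460598-163460627 (HMMR) on the plus strand and at chr10:56361273-56361302 (ZWINT) on the minus strand.
ANLN: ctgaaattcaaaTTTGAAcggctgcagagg
ZWINT: gtcgactgtgacTTCAAAgtaatcttaggg
KIF15: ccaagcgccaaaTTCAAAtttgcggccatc
BUB1B: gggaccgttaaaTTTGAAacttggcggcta
HMMR: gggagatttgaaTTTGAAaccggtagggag

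**Figure D3:**
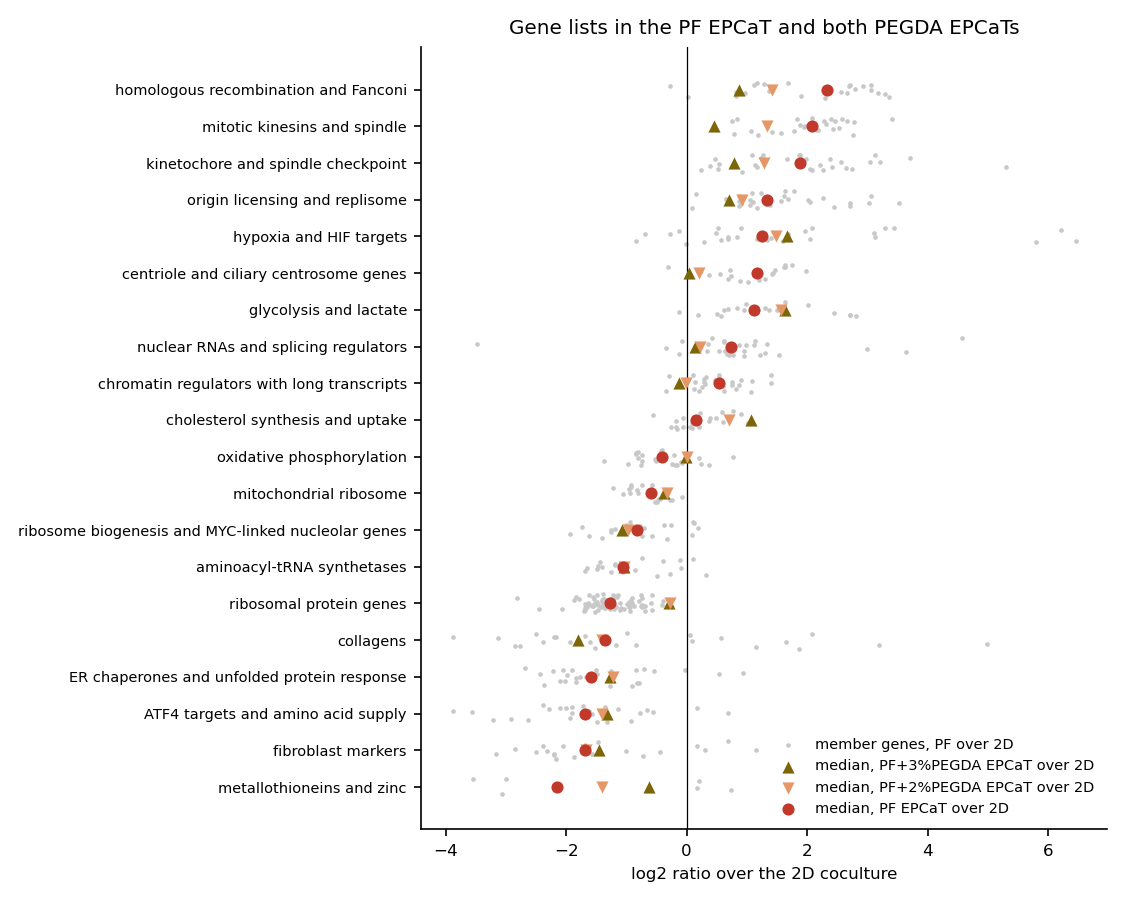
Each grey dot is a gene of a list (rows) with its log2 ratio of PF over 2D, and larger symbols are the list's median in each EPCaT over 2D. The red PF median lies right of both PEGDA medians for repair, mitosis and centriole lists and left of them for ribosomal protein genes (-1.27 against -0.27 and -0.30) and metallothioneins.

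Ribosomal protein genes, whose products make up the cytosolic ribosome, were 31 of the 110 PF-only lower genes. All 77 genes named RPL, RPS, RPLP or RPSA that the table holds were considered, and 53 were lower in PF than in 2D with 0 higher. In PF+2%PEGDA 0 were lower and 1 was higher, and in PF+3%PEGDA 0 were called. Their summed level was 20690 CPM in PF, 40130 and 38770 CPM in the PEGDA tissues and 47090 CPM in 2D. In 76 of the 77 the PF library had the lowest level of the 4, and the median log2 ratio was -1.27 in PF, -0.27 in PF+2%PEGDA and -0.30 in PF+3%PEGDA. PF was called lower than PF+2%PEGDA for 38 and lower than PF+3%PEGDA for 35.

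**Figure D4:**
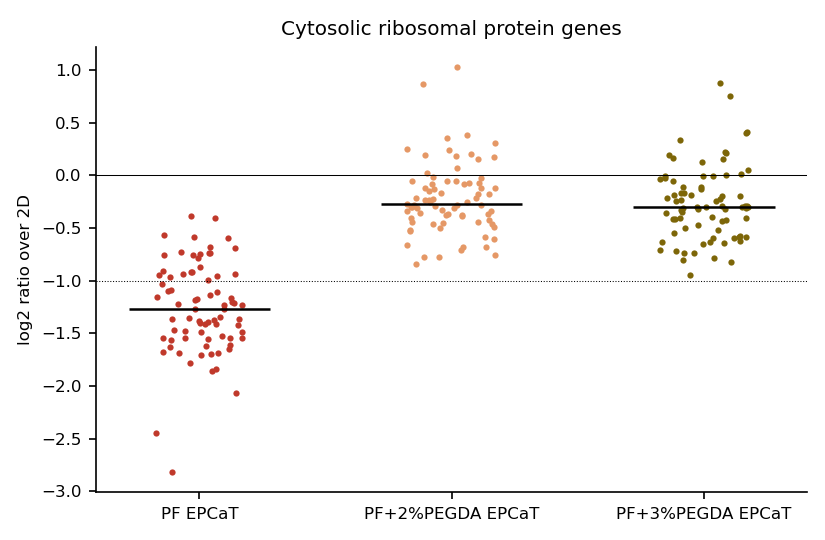
Log2 ratio over 2D of the 77 ribosomal protein genes (points) in each EPCaT, with the median as a bar and the 2-fold line dotted. In PF 53 of the 77 were called lower, and both PEGDA tissues centre just under 0.

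RPS27, a small subunit protein gene (chromosome 1, 153990755 to 153992155), measured 58.5, 379, 279.9 and 319 CPM and was 5.45-fold lower in PF than in 2D (interval 5.09 to 5.85). RPL36A, of the large subunit (chromosome X), measured 9.66, 57.9, 68.2 and 68.3 CPM (7.06-fold, interval 5.98 to 8.41), and RPL39, which lines the exit tunnel, 44.9, 298.9, 276 and 163.5 CPM (3.64-fold). RPL41, the smallest ribosomal protein, measured 209, 890.3, 685.5 and 680.6 CPM. For each of these the PF library was far below the other 3, which lay close together except for RPL39, where the PEGDA tissues exceeded 2D. RPS20 and RPL22, named after their values were seen, lay nearer to 2D, with log2 ratios of -0.39 and -0.40. RPL21P28 and RPL23P8, processed copies of ribosomal protein genes, were also in the first 12 and share sequence with their parents, so their values are uncertain.

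Most vertebrate ribosomal protein messages start with a terminal oligopyrimidine (TOP) tract, a cytosine followed by pyrimidines, through which mTOR and LARP1 control their translation and stability. The tract was searched on the transcribed strand as a C followed by at least 5 pyrimidines, starting within 5 bases of the annotated start. It was found in 46 of 62 ribosomal protein genes with a promoter sequence (74.2%) and in 11.8% of all promoters. Of 27 PF-only lower ribosomal protein genes with a promoter sequence 18 held it (66.7%). So did 12 of 49 PF-only lower genes that are not ribosomal protein genes (24.5%). Ribosomal protein genes with the tract had a median log2 ratio of -1.37 and those without -1.21. The windows shown are 30 bases across the start of 6 PF-only members chosen because they hold the tract, which is in capitals. RPS12 and RPL26 were added after their values were seen. They lie at chrX:101390996-101391025 (RPL36A), chr1:153990747-153990776 (RPS27), chr12:56116618-56116647 (RPL41) and chr6:132814554-132814583 (RPS12) on the plus strand and at chrX:119791616-119791645 (RPL39) and chr17:8383179-8383208 (RPL26) on the minus strand.
RPL36A: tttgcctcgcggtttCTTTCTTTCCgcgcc
RPS27: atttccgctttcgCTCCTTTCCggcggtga
RPL39: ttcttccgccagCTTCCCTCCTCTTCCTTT
RPL41: cggaacttcgCCTTTCTCTCggccttagcg
RPS12: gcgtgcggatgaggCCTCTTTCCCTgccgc
RPL26: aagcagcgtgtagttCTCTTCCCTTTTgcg

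Other abundant short messages were in the same PF-only lower group, and they are named after their values were seen, apart from FTL and CXCL8. FAU, which encodes a ubiquitin-like protein fused to RPS30, measured 60.7, 254, 174 and 346 CPM (5.70-fold lower). TPT1, a growth-linked protein with a TOP message, measured 561, 1333, 1501 and 1591 CPM. FTL, the ferritin light chain, was 2.49-fold lower (505, 1048, 1371 and 1258 CPM). VEGFB, a VEGF family ligand, measured 61.5, 124, 128 and 165 CPM, and CXCL8, the interleukin-8 gene, 22.8, 50.5, 61.3 and 65.6 CPM. CERS6-AS1, an antisense RNA that shares 69.7% of its exon bases with another gene, had 4 counts in PF against 281 in 2D, and PGBD3, a transposase-derived gene, 4 against 92.

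Transcript length moved with these ratios. In PF against 2D the median log2 ratio was -0.50 for 784 genes with a principal transcript under 1 kb and 0.48 for 259 genes of 12 kb or more, with a steady rise between. Each doubling of length went with 0.21 in PF, 0.06 in PF+2%PEGDA and 0.08 in PF+3%PEGDA. Among ribosomal protein genes, 37 under 1 kb had a median of -1.35 and 39 of 1 kb or more had -1.22. The 747 other genes under 1 kb had a median of -0.45. With a linear trend on length and GC content removed, 35 of 76 ribosomal protein genes were lower (median -0.95) and 15 met the PF-only rule. Only genes with an annotated length enter this fit. Of the 110 lower and 280 higher PF-only genes, 103 and 242 have a length. With the trend removed, 70 lower and 243 higher genes met the PF-only rule. RNA integrity and the share of nuclear RNA were not measured in the data used here, and their part in the length trend was not tested.

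**Figure D5:**
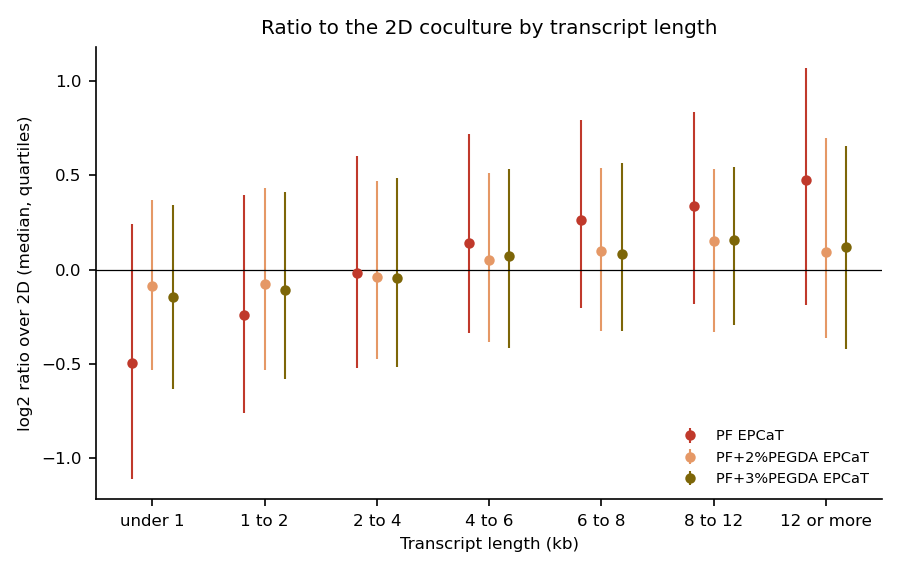
Median (point) and quartiles (bar) of the log2 ratio over 2D for genes in bins of transcript length (kb). The PF medians rise from -0.50 under 1 kb to 0.48 at 12 kb or more, and the PEGDA medians stay between -0.15 and 0.16.

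Mitochondrial ribosomal protein genes tended lower in PF, with fewer calls than the cytosolic ones. Of the 77 measured, 15 were lower in PF (19.5%, against 12.2% of all genes considered), with a median of -0.62. In PF+2%PEGDA 0 were lower (-0.33), and in PF+3%PEGDA 5 were lower and 1 higher (-0.38). In 57 of the 77 the lowest level was in PF. For comparison, 25.3% of the 747 genes under 1 kb outside the cytosolic ribosome were lower in PF (median -0.45). Of 22 ribosome biogenesis genes 7 were lower in PF and 11 in each PEGDA tissue, among them MYC, the growth regulator, at 83.98, 90.6, 82.5 and 323 CPM and RRP12, a factor of subunit export, at 32.2, 29.3, 27.9 and 107 CPM. Of 20 aminoacyl-tRNA synthetases, which charge tRNAs, 11 were lower in PF (median -1.05) and 10 and 11 in the PEGDA tissues. GARS1 measured 135, 159.6, 169 and 432 CPM. In the biogenesis and synthetase lists the medians of the 3 tissues lay together, all below 2D.

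The amino acid and endoplasmic reticulum (ER) stress programmes were lower in PF as in the other tissues. ATF4 is the transcription factor that answers amino acid shortage. Of 26 ATF4 targets and amino acid supply genes 20 were lower in PF (median -1.68). In PF+2%PEGDA 19 were lower and 1 higher (-1.41), and in PF+3%PEGDA 18 and 2 (-1.33). Of the 10 response genes 6 were lower in PF (median -1.398), and of the 16 synthesis and transport genes 14 (-1.805). CBS, which makes cystathionine, measured 3.24, 8.96, 4.92 and 47.96 CPM (14.7-fold lower), and SLC3A2, the heavy chain of amino acid transporters, 233, 281, 303 and 2159 CPM (9.26-fold). Of 26 ER chaperones and unfolded protein response genes 17 were lower (median -1.59), against 16 (-1.22) and 14 (-1.27). CALR, the chaperone calreticulin, measured 969, 1003, 979.5 and 5017 CPM (5.18-fold), and MANF, a secreted ER stress factor, 55.9, 63.8, 57.01 and 357 CPM (6.39-fold). The chaperones had a median of -1.90 and the sensors and degradation factors -0.82.

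The ER stress response element, CCAAT and CCACG at a fixed spacing on either strand, binds NF-Y with ATF6 or XBP1. It was present in 6 of 24 promoters of this ER list (25%) and in 0.124% of all. Of the 6 genes with it 5 were lower in PF (median -1.87), and of the 18 without it 11 were lower (-1.38). The windows of 3 of them show the element in capitals. They lie at chr9:125241385-125241414 on the minus strand for HSPA5, the chaperone BiP, and on the plus strand at chr19:12938379-12938408 for CALR and chr12:103930316-103930345 for HSP90B1, another ER chaperone.
HSPA5: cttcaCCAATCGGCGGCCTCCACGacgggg
CALR: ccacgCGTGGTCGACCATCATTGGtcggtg
HSP90B1: gggtgCGTGGTGCGGCGCGATTGGtgggtt

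Hypoxia and glycolysis genes were often higher in PF, with lower medians than in the PEGDA tissues. Of 28 hypoxia genes 15 were higher in PF (median 1.25), 17 in PF+2%PEGDA (1.49) and 20 in PF+3%PEGDA (1.66), and all 15 were also higher in both other tissues. EGLN3, an oxygen-sensing hydroxylase, measured 38.9, 59.8, 70 and 0.409 CPM (88-fold, interval 43.5 to 260), and PFKFB4, a regulator of glycolytic flux, 203, 257, 257 and 20.8 CPM. NDRG1, a stress-induced gene, measured 4609, 5642, 5869 and 527 CPM (8.74-fold). The sensors and HIF subunits had a median of 0.41 and the targets 1.64. Of 19 glycolysis genes 10 were higher in PF (median 1.13) and 15 in each PEGDA tissue (1.56 and 1.63). ALDOC, an aldolase, measured 101.5, 176, 210.1 and 14.4 CPM. VEGFA, the main angiogenic factor, measured 215, 144.5, 159.7 and 153 CPM and was not called. The hypoxia response element core, ACGTG on either strand, was in 11 of 23 promoters of the hypoxia list (47.8%) and 26.1% of all.

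Cholesterol synthesis genes lay nearer to 2D in PF than in the PEGDA tissues. Of 20 genes 1 was higher in PF (median 0.15), against 4 in PF+2%PEGDA (0.71) and 11 in PF+3%PEGDA (1.07), and 4 were lower in PF than in PF+3%PEGDA. INSIG1, which holds the sterol sensor in the ER, measured 93.5, 170.5, 236 and 72.2 CPM, and MSMO1, a sterol oxidase, 81.2, 154, 225 and 84.7 CPM. PF lay near 2D and the level was higher with each PEGDA concentration. HMGCS1, which makes HMG-CoA, was the member called in PF (97.1, 116, 163 and 47.7 CPM). INSIG1 and MSMO1 are named after their values were seen. Among lipid genes, ACADVL, an enzyme of fat oxidation (257, 126, 99.9 and 79.8 CPM), and PLIN5, a lipid droplet protein (12, 5.03, 4.26 and 2.52 CPM), were PF-only. For PLIN5, PF+2%PEGDA missed the 2-fold limit above 2D only narrowly.

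Fibroblast genes were lower in PF, as in the other tissues. Of the 21 measured markers 15 were lower and 1 was higher (median -1.70), against 13 and 1 in each PEGDA tissue (-1.67 and -1.46). Their summed level was 3557, 4232, 3598 and 10750 CPM. Fewer fibroblasts and less RNA per fibroblast cannot be told apart in these bulk libraries, and this holds for CTNNA1, the collagens and the HOX genes too. PDGFRB, a PDGF receptor, measured 16.6, 16.4, 10.7 and 148 CPM (8.91-fold lower), while PDGFRA, the other one, measured 19.7, 20.4, 24.9 and 17.4 CPM and was not called. SPARC, a matrix-binding protein gene, was called in PF alone of the 3 tissues against 2D (208, 481, 392.1 and 576 CPM). PF lay within 2-fold of PF+3%PEGDA for SPARC, so it was not PF-only. PDGFRA and SPARC are named after their values were seen. COL5A2, a fibrillar collagen chain, was the higher member and PF-only, at 513, 200.4, 178 and 229.6 CPM (2.23-fold, interval 2.15 to 2.33).

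Matrix genes went mostly the same way in the 3 tissues. Of 24 collagens 6 were higher in PF and 13 lower (median -1.35), against 4 and 15 in PF+2%PEGDA and 3 and 18 in PF+3%PEGDA. COL2A1, of cartilage, measured 449, 515.5, 391 and 14.1 CPM, and COL4A6, a basement membrane chain, 15.8, 5.28, 3.74 and 1.70 CPM. COL1A2 and COL5A3 were among the lower ones, 7.16- and 8.80-fold. Of 31 laminins, glycoproteins and proteoglycans 1 was higher, HSPG2 (perlecan, 583, 795, 769 and 226 CPM), and 15 were lower, among them SULF1, a heparan sulfatase, 22.2-fold (interval 18.4 to 27.2), and SDC1 (syndecan-1, 232, 239.7, 192 and 1867 CPM). YAP and TAZ targets had 1 higher and 10 lower of 22 (median -0.96), and WWTR1, which encodes TAZ itself, was the higher one at 376, 422, 445 and 153.5 CPM. Of 22 actin and contractile genes 3 were higher and 6 lower (median -0.45), with MYH10, a nonmuscle myosin, higher and TAGLN 12.2-fold lower.

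Markers of other cell types were measured in part. Of 10 endothelial markers 6 were measured, with 3 higher and 2 lower in PF, and their sum was 276, 329, 381 and 72.3 CPM. KDR, the VEGF receptor, measured 154, 184.5, 227 and 22 CPM and PECAM1 65.4, 82.3, 86.4 and 7.15 CPM, but CDH5 and VWF, which define endothelium, were not among the genes considered. Of 8 adipocyte markers 5 were measured and 3 were higher, led by FABP4 (56.03, 92.8, 116 and 1.43 CPM). Of 8 neural markers 4 were measured and 3 higher, ENO2, NEFL and TUBB3. Smooth muscle and pericyte markers had 1 higher and 3 lower of 6, and blood and immune markers 1 and 1 of 3, with PTPRC not among the genes considered. The cultures hold established lines only, and no part of these cell types in the results was tested.

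Signalling genes also differed. Of 25 TGF-beta and BMP genes 10 were lower and 2 higher in PF (median -0.62), against 5 and 3 in each PEGDA tissue. TGFB1, the main ligand, measured 99.6, 164, 170 and 309.5 CPM and was called in PF alone of the 3, and the targets PMEPA1 (21.3, 37.7, 35.1 and 60.1 CPM) and ID2 (22.3, 38.9, 40.1 and 52.5 CPM) showed the same, although PF lay within 2-fold of the PEGDA tissues for each. PMEPA1 and ID2 are named after their values were seen. Of 15 cytokine and chemokine ligands 10 were lower (median -1.41), against 7 and 7, among them IL24 (0.780, 0.129, 1.03 and 20.6 CPM) and IL6 (1.50, 1.22, 0.734 and 8.18 CPM). Of 24 HOX genes 10 were lower and 2 higher. HOXB9 measured 6.72, 9.73, 14.01 and 78.3 CPM, while HOXA13, a posterior HOX gene, was 4.29-fold higher.

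Metallothioneins, which bind zinc and copper, were lower in PF. Of 7 measured members of the list 4 were lower in PF (median -2.15), 4 in PF+2%PEGDA (-1.40) and 3 in PF+3%PEGDA (-0.63). MT2A measured 48.5, 124, 184 and 567 CPM (11.7-fold lower) and MT1X 6.84, 21.8, 37.4 and 57.6 CPM (8.40-fold), and both were also lower in PF than in each PEGDA tissue. The MT1 genes are close copies of each other, so their single values are uncertain. Interferon-stimulated genes as a list lay near 2D (25 genes, median -0.16, or 0.02 with total counts scaling, 2 higher and 4 lower), against -0.67 in PF+2%PEGDA and -0.38 in PF+3%PEGDA. STAT2, which relays interferon signals (chromosome 12, 56341597 to 56360155), was PF-only at 289, 107, 114 and 101.2 CPM (2.86-fold, interval 2.70 to 3.03).

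The genes ranked highest against 2D included surface proteins and receptors, and those named here were higher in all 3 tissues. MUC16, the mucin that carries the CA-125 antigen (chromosome 19, 8848844 to 8981342), measured 158, 70.2, 73.4 and 0.749 CPM and was 201-fold higher in PF (interval 117 to 422). Its level in PF was 2.25- and 2.15-fold that of the PEGDA tissues. FPR3, a formyl peptide receptor, was listed with 1136 counts in PF and 0 in 2D, at least 333-fold higher when 2D is set to a floor of 3 counts. PPFIA4, a liprin of cell junctions, had 1 count in 2D and a ratio of 351 (interval 94 to 20800), and its levels were 35.8, 9.53, 9.69 and 0.0681 CPM. FAM111B, a protease gene, measured 35.2, 13.3, 12.6 and 0.545 CPM. Of 17 mucins and surface antigens 9 were higher and 1 lower in each tissue (median 1.46 in PF), with MUC5B at 699, 557, 547.5 and 36.3 CPM. SCNN1G, a sodium channel subunit, measured 73.96, 71.7, 72.05 and 2.25 CPM.

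The genes ranked lowest were mostly low in all 3 tissues too. TNFSF18, a TNF family ligand, had 3 counts in PF and was 35.2-fold lower (interval 13.6 to 201), and ADRA1D, an adrenergic receptor, measured 6.06, 6.44, 4.92 and 114 CPM (18.7-fold). KRTAP2-3, a hair keratin-associated protein gene that shares 39.7% of its 50-mers with others, measured 0.360, 0.902, 1.32 and 16.6 CPM. TGFB2-OT1, which lies within another gene's exons, had 0 counts in PF and was at least 43.5-fold lower against the floor.

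A small set of genes differed from 2D in both PEGDA tissues and not in PF, with PF also apart from each of them, 19 higher (0.13%) and 38 lower (0.261%) in those tissues. TUBA1A, an alpha-tubulin (chromosome 12, 49184796 to 49189324), measured 57.3, 182, 269 and 63.1 CPM, so PF matched 2D within 1.10-fold. ACKR3, a chemokine scavenger receptor, measured 5.58, 14.95, 20.9 and 5.11 CPM, PDGFD, a PDGF ligand, 4.26, 10.1, 12.99 and 4.63 CPM, and CALCRL, the adrenomedullin receptor, 2.16, 5.80, 8.95 and 2.32 CPM. On the lower side stood the signal recognition particle RNAs RN7SL1 (30.8, 5.09, 5.65 and 18.4 CPM) and RN7SL2, and the 28S ribosomal RNA entries. RN7SL1 and RN7SL2 share sequence with each other or with other genes. The part of poly-A selection in the values of these RNAs was not tested. LAMA5, a laminin chain, was lower in both PEGDA tissues (596, 293, 259.5 and 850 CPM), as was COL7A1, of anchoring fibrils (10.8, 3.48, 2.42 and 10.2 CPM). LAMA5 and COL7A1 are named after their values were seen.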

How the data were processed

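RNA sequencing was done on 4 libraries, 1 for each of the PF EPCaT, the PF+2%PEGDA EPCaT, the PF+3%PEGDA EPCaT and the 2D coculture. Per the labels, libraries were made from total RNA with a TruSeq RNA kit, which selects poly-A RNA and does not mark strand. Per the submitters' processing notes, FastQC, STAR and Partek were used with hg38, while versions, the gene models and how reads were counted are not given in the sources used here. The authors deposited expected counts per gene, of which 18.2% to 19.9% per library are not whole, and these were rounded to whole numbers. Their total per library, 13760301 to 15687894, sets the counting error.

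From these counts, libraries were scaled with TMM (edgeR 4.0.16 in R 4.3.3) over all 4, and CPM are per 1000000 of that size. Genes had at least 1 count per 1000000 total counts in PF or 2D. Log2 ratios include a prior count of 0.5, and exact Clopper-Pearson 95% intervals were computed with scipy 1.17.1. A call needs 2-fold and an interval without equality. Folds against a library at 0 use a floor of 3 counts in that library. Positions and lengths are those of GENCODE 29 (GRCh38), which matched 17074 symbols, and 363 of the genes considered have no annotation. Genes with shared 50-mers or overlapping exons over 50% (761) were treated as uncertain.

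Named genes had at least 5 CPM and were ranked by the interval bound nearest to equality: 12 each way against 2D and PF-only, 6 each way for genes that PF lacks, up to 5 called in opposite directions, and up to 6 called members each way in a list, plus 11 set genes. A gene outside this rule is said to be named after its values were seen, which also holds for the genes shown only by sequence and for the gene families defined by name. The members and lists were chosen with earlier results of these data known. The ratio, interval and call were tested on simulated data. Other scalings (DESeq2 1.42.0 size factors, total counts, upper quartile), filters, prior counts, call sizes and a length and GC trend were tried.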

Additional observations from a re-analysis of the deposited data

Results flagged for a closer look

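Among genes called in opposite directions in the EPCaTs (32 higher and 4 lower in PF), the 5 that the naming rule selects are given here. Each was higher than 2D in PF and lower than 2D in a PEGDA tissue, and the difference was not tested. PVRIG2P, a pseudogene whose exons lie wholly within another gene's, had log2 ratios of 3.853 in PF, 0.656 in PF+2%PEGDA and -2.326 in PF+3%PEGDA. CHKB-CPT1B, a read-through symbol that shares 97.8% of its exon bases with other genes, had 3.586, 0.134 and -4.537. MST1, the gene of macrophage-stimulating protein, had 2.866, 0.23 and -2.952, from 6.18, 0.966, 0.0734 and 0.818 CPM. PLA2G4B, a phospholipase gene with 75.6% of its exon bases shared, had 1.926, -2.968 and -0.665. RRP7BP, a pseudogene, had 2.19, 0.085 and -1.478. In 4 of the 5 the lower value is in PF+3%PEGDA, at 0 to 5 counts.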

How the results depend on the processing

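No paired analysis was possible because each group has 1 library. With DESeq2 size factors, upper-quartile scaling, total counts, TMM from PF and 2D alone (which gives no PF-only count) or a prior count of 2, every count of called genes stayed within 1.5 times its value. At 4-fold the counts were 916 higher and 457 lower against 2D, 65 and 26 PF-only, 0 and 6 for genes called in both PEGDA tissues and not PF, and 190 of the named genes in place of 342. With the interval bound itself past 2-fold they were 1538 and 1131, 137 and 50, and 4 and 12. A filter of 5 CPM gave 160 PF-only higher genes, and 4 and 19 that PF lacks, and no filter gave 45 higher that PF lacks. With the length and GC trend removed, which needs an annotated length, 70 PF-only lower genes were found. Of the 242 higher and 103 lower PF-only genes with a length, 201 and 63 stayed PF-only. The trend removed left 313 named genes with the same call, 32 without a call and 3 newly called. A sign change was seen under at least 1 alternative in 9 of 71 list medians, of size up to 0.335, and in 4 of 358 named genes, of size up to 0.139 and not called. With total counts the medians moved from -0.162 to 0.017 for interferon-stimulated genes, -0.093 to 0.087 for the proteasome, -0.033 to 0.146 for keratins and -0.04 to 0.139 for S100 genes, and TUBA1A moved from -0.139 to 0.04. No called gene reversed. With 1 library a group, variation between cultures is not measured, and ratios on few counts have wide intervals.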

Other observations

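Luminal and androgen-linked genes were more often higher than lower in PF, and few epithelial markers were called. Of 24 epithelial markers 5 were higher in PF (20.8%, against 16.5% of all genes considered) and 0 lower (against 12.2%). Their median log2 ratio was 0.45, and 0 were PF-only. In PF+2%PEGDA 6 were higher and 0 lower, and in PF+3%PEGDA 6 and 1. Among the 5 was CDH1, the gene of E-cadherin, at 421, 392.1, 377 and 171.6 CPM in PF, PF+2%PEGDA, PF+3%PEGDA and 2D. Of 13 luminal and androgen-linked genes 7 were higher and 2 lower (1.42), with TMPRSS2, a surface protease, at 383, 310, 301 and 42.4 CPM. Of 14 tight junction genes 4 were higher and 3 lower in PF, and CGN, which encodes cingulin, was PF-only at 53.6, 19.7, 21.1 and 26.1 CPM. VIM, the mesenchymal filament vimentin, measured 623, 1135, 1394 and 1851 CPM and was called lower in PF alone of the 3 tissues. PF lay within 2-fold of PF+2%PEGDA, so VIM was not PF-only.

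Mitochondrial respiratory genes lay slightly lower in PF. Of 24 oxidative phosphorylation genes 1 was lower (median -0.42, against 0.00 and -0.01 in the PEGDA tissues), and 19 of the 24 had their lowest level in PF. Of 447 zinc finger genes named ZNF, 96 were higher (21.5%) and 20 lower (4.47%) in PF (median 0.28). Among all genes considered these shares were 16.5% and 12.2%. The ZNF counts were 50 and 17 in PF+2%PEGDA and 46 and 22 in PF+3%PEGDA. Of 308 antisense RNAs 87 were higher (28.2%) and 38 lower (12.3%, near the share of all genes). Without strand, their reads cannot be told apart from those of the partner gene.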
